A study of Mus musculus with 12 samples.

Results

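Gene expression in newborn mice lacking the NMDA receptor subunit NR3B was compared with that in wild-type mice at postnatal day 0 (P0). The comparison uses 6 of the 12 samples of the series: the 3 titled P0KO and the 3 titled P0WT. The other 6 samples hold the same 2 genotypes at postnatal day 5 (P5), again 3 per genotype. They enter here as a reference for the spread between samples and for the size of the genotype difference. Each sample is total RNA, read on its own Affymetrix array, which measures transcripts with sets of short probes (probe sets).

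NMDA receptors are glutamate-gated cation channels that carry calcium into neurons and take part in synaptic plasticity. They are built from an obligatory subunit, Grin1, together with Grin2 or Grin3 subunits. Grin3b encodes NR3B (GluN3B), which is known from motor neurons of the brainstem and spinal cord and which lowers the calcium permeability of the receptor.

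All groups are mice of the same species label. The labels state neither the strain, nor the deleted part of Grin3b, nor how the deletion was made, nor whether animals were pooled. For tissue, 1 label field names hindbrain and spinal cord beside brain, while the source field names brain alone. All 20 measured neuron structure genes lay above the 40th percentile of probe set means, and so did 23 of 26 Hox genes of hindbrain and spinal cord. With each gene taken by its brightest probe set, 12600 of all 18193 genes lay above it. Of 18 muscle genes, 12 lay below that percentile, as did 10 of 19 forebrain genes. Nothing in the labels ties the 3 samples of a group to separate animals. The p-values therefore speak of the spread among the samples at hand, part of which may be technical. The number of arrays, 3 per group, limits the precision of every value below.

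The P0 samples differed from each other in ways that the genotype label did not account for. The 18S ribosomal RNA control probe set at the 3′ end of that transcript read 7728, 100030 and 48911 in wild-type samples 1, 2 and 3, and 78423, 102800 and 90245 in knockout samples 1, 2 and 3. Wild-type sample 1 was thus 13.3-fold below the highest P0 sample, while the 6 P5 samples spanned 86789 to 110510. Another 18S probe set, labelled M, read 3618, 22789 and 25764 in wild-type samples 1, 2 and 3. It read 40201, 37381 and 43503 in knockout samples 1, 2 and 3. Wild-type sample 2, high on the 3′ probe set, was thus low on the M probe set. The ratio of the 5′ to the 3′ beta-actin control, which falls as RNA breaks down or is copied incompletely, was lowest in wild-type sample 3 at 0.676 and knockout sample 3 at 0.632. The other 4 P0 samples read 0.779 to 0.810 and the P5 samples 0.792 to 0.844. The BioB spike-in control, added to every hybridization, was highest in wild-type sample 2 at 8399 and knockout sample 1 at 9919, against 3031 to 5116 in the other P0 samples. No sample was extreme in all of these controls.

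Spread within a group was larger at P0 than at P5. On the log2(signal + 16) scale after quantile normalization, the median within-group SD over all 45037 non-control probe sets was 0.354 among the P0 wild-type samples and 0.332 among the P0 knockout samples, against 0.229 and 0.240 in P5 wild type and knockout (n = 3 each). Bright probe sets, taken here as the 27022 above the 40th percentile of the mean (a signal of about 406), gave 0.279 and 0.246 at P0 and 0.143 and 0.156 at P5. For each pair of samples, the median absolute log2 difference over bright probe sets gives a distance. Pairs of P0 samples of the same genotype lay 0.238 to 0.388 apart (6 pairs, median 0.307). Pairs of opposite genotype lay 0.200 to 0.447 apart (9 pairs, median 0.294). The closest pair of all 6 P0 samples was therefore a mixed one, wild-type sample 2 and knockout sample 2, and the farthest was wild-type sample 1 and knockout sample 3. All pairs of P5 samples lay within 0.151 to 0.192.

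The first principal component of the bright probe sets held 48.0% of the variance among the 6 P0 samples. It ran from wild-type sample 1 at -58.7 through wild-type sample 3 at -36.2 and knockout sample 1 at -18.4 to wild-type sample 2 at 19.5, knockout sample 2 at 35.9 and knockout sample 3 at 58.0. Wild-type sample 2 lay among the knockout samples, and the genotypes overlapped (two-sided exact permutation test, p = 0.2). The second component held 19.2% of the variance and did not order the samples by genotype either (two-sided exact permutation test, p = 0.8). The first component also followed the 3′ 18S signal at its low end, as the plot of both shows. On the M probe set, wild-type sample 2 read below wild-type sample 3, at 22789 against 25764, though it lay at 19.5 on the component.

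**Figure D1:**
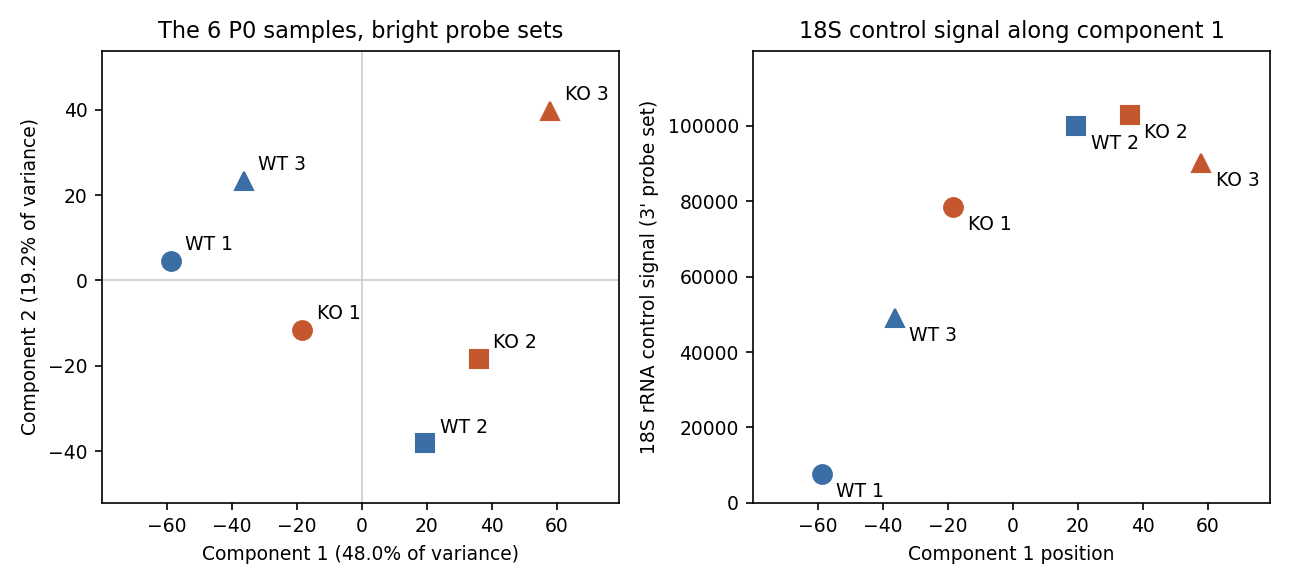
Left, the 6 P0 samples on the first and second principal components of the 27022 bright probe sets (component scores, no unit). Right, the deposited 18S control signal (3′ probe set) of each sample against its first component score. Blue marks wild type, orange marks knockout, and the shape gives the sample number. Wild-type sample 2, at 19.5, sits between knockout samples 1 and 2, and wild-type sample 1 has the lowest 18S signal, 7728.

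The genes at the ends of this axis differed in kind. With the sign set so that knockout sample 3 is positive, the 10 genes with the largest positive weights were Pgm5, Blvrb, Nme1, Ifi27, Selenov, Gtf2ird1, Gng13, Atp5md, Apoc1 and Bola2. Nme1, a nucleoside diphosphate kinase, read 6031, 23343 and 6758 in wild-type samples 1, 2 and 3 and 8173, 46265 and 54726 in knockout samples 1, 2 and 3. Wild-type sample 2 was the high one of its group and knockout sample 1 the low one. The 10 genes with the largest negative weights were Tln2, Tmem259, Trp53bp1, Tnks, Strbp, Rasgrf2, Mog, Zfp451, Cyria and Lamc1. Strbp, which encodes a double-stranded RNA-binding protein, read 24248, 9757 and 11482 in wild type and 15020, 6292 and 1557 in knockout. The brightness limit, a log2 level of 8.72, is set on the mean of all 12 samples. Mog (7.38 and 5.47) and Selenov (8.17 and 8.28) lay below it in P0 wild type and knockout and passed through P5. Some weights rest on a very low reading: Tln2 and Trp53bp1 read 20.3 and 9.32 in knockout sample 3, against 1177 and 1766 in knockout sample 1. The 500 genes at the positive end had a median genomic span of 6.67 kb in the RefSeq table of GRCm38.p6, against 64.4 kb for the 500 at the negative end and 25.1 kb for all bright genes.

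Whole gene lists lay along the same axis. Each gene is represented here by its brightest probe set. Of bright ribosomal protein genes, 95.5% had positive weights, as did 94.4% of microglia genes, 91.3% of Hox genes, 89.5% of DNA replication genes, 87.5% of red blood cell genes and 85.7% of nuclear oxidative phosphorylation genes. Among all bright genes the share was 58.8%. The lists with fewer positive than negative weights were the AMPA and kainate receptor subunits with 30% positive, RNA-binding and splicing genes with 34.4%, endothelial genes with 37.5%, GABA-A and glycine receptor subunits with 38.5%, neuron structure genes with 40% and astrocyte genes with 47.1%. These shares describe where the 6 samples lay and carry no test.

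Sex was alike in both P0 genotypes. Xist, the RNA that coats the inactive X chromosome of females, read 18343 and 24932 in wild-type samples 1 and 2 and 16450 and 20894 in knockout samples 1 and 2. It read 239 in wild-type sample 3 and 89.8 in knockout sample 3. Y-linked Eif2s3y had the reverse pattern, 6934 and 7366 in samples 3 of wild type and knockout and 190 or less in the others. Each P0 genotype thus held 2 samples with the female pattern and 1 with the male pattern.

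Against this spread, knockout and wild type were compared for every non-control probe set with limma. The linear model over all 12 samples had a mean per group and 1 weight per age. That weight lets the spread differ between ages, by the same factor for every probe set. Differences are knockout minus wild type of log2(signal + 16), and the added 16 shrinks the differences of dim transcripts. A probe set was called where its Benjamini-Hochberg adjusted p over all 45037 probe sets was under 0.05. The comparison called 1 probe set (0.00222% of those tested), lower in knockout, and 0 higher. At an unadjusted p under 0.05 there were 3506 probe sets (7.78%), 1719 higher (3.82%) and 1787 lower (3.97%). With the 6 P0 samples alone in the model, 0 probe sets were called and 2702 (6%) had an unadjusted p under 0.05. The median SE over bright probe sets was then 0.246, against 0.238 with all 12 samples. Single genes moved further in either direction. With the P0 samples alone, the SE was 0.63 for Mobp (0.45 with all 12) and 0.19 for Apod (0.16), but 0.35 for Hddc3 (0.53). The SEs below are those with all 12 samples. The called gene was Tmem259.

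Tmem259, which lies next to Grin3b in the RefSeq gene order, read lower in the knockout. Whether its probe set lies inside the deleted stretch is not stated in the labels. The lower reading may therefore report the deletion itself or a change in expression, and this was not tested. It encodes membralin, a membrane protein of the endoplasmic reticulum that takes part in protein degradation there. Its probe set 1427109_at read 4446, 6281 and 4817 in wild-type samples 1, 2 and 3, and 587, 342 and 95.0 in knockout samples 1, 2 and 3. The groups were far apart, and knockout sample 3 was the lowest. The log2 level was 12.31 ± 0.30 in wild type and 8.17 ± 1.14 in the knockout (SD over 3 samples each). Knockout minus wild type was -4.14 (SE 0.40), or 17.6-fold lower (limma adjusted p = 0.00163). At P5 the difference was -3.24 (SE 0.28, limma adjusted p = 0.000198). The call was lost with the P0 samples alone (limma adjusted p = 0.288, same difference), and over 25 alternative settings it held in 22, with adjusted p from 3.635e-05 to 0.288.

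Grin3b itself was lower in every knockout sample, on a dim probe set. The probe set 1449899_at lay at the 13th percentile of all means. It read 353, 198 and 304 in wild type and 31.4, 38.8 and 96.9 in knockout, and the groups did not overlap. The difference was -2.11 (SE 0.58), which did not pass the threshold over all probe sets (limma adjusted p = 0.635). A two-sided exact permutation test over the 6 P0 samples gave p = 0.1, the smallest value that 3 against 3 samples allow. At P5 the difference was -1.75. Over the alternative settings it ranged from -2.55 to -1.53 and was never called. No label says whether this probe set lies inside the deleted part, so its level may or may not report the deletion.

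The remaining neighbours of Grin3b gave no call. Of the 10 protein-coding genes on each side of it, 19 of 20 had a probe set with that single symbol. Apart from Tmem259, their differences ran from -0.60 for Arhgap45 to 0.76 for Prtn3, a neutrophil protease. Of these 18 genes, 4 had an unadjusted p under 0.05. Among all genes, at 1 probe set per gene, 5.8% had such a p and were higher, and 2.36% were lower. Cnn2, which encodes the actin-binding protein calponin H2 and follows Tmem259 in the gene order, read 984, 915 and 896 in wild type and 1076, 1330 and 1014 in knockout. These values do not overlap but lie close, and the difference of 0.34 (SE 0.19) was not called (limma adjusted p = 0.657). Plppr3, a membrane protein of growing axons and the ninth neighbour on the other side, was 0.34 higher (SE 0.14). Of the 100 genes with the smallest p, 8% lay on the chromosome of Grin3b, against 4.77% of all genes placed on a chromosome.

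The other NMDA receptor subunits showed no call in either direction. Grin2d, a subunit of the embryonic brainstem and spinal cord, read 1972, 2149 and 2137 in wild type and 1790, 2668 and 3864 in knockout, a difference of 0.37 (SE 0.29). Knockout samples 1 and 3 lay on opposite sides of the wild-type range. Grin2b, the main Grin2 subunit of the newborn forebrain, differed by -0.12 (SE 0.21). Grin3a, the paralog of Grin3b, read 3795, 6732 and 5923 in wild type and 4692, 6307 and 6842 in knockout, a difference of 0.16 (SE 0.22) with overlapping groups. The dim probe sets of Grin2a and Grin2c differed by -0.49 (SE 0.50) and 0.054 (SE 0.44). No probe set carried Grin1 as its single symbol. The signs for Grin2b, Grin2c and Grin3a turned under some settings.

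**Figure D2:**
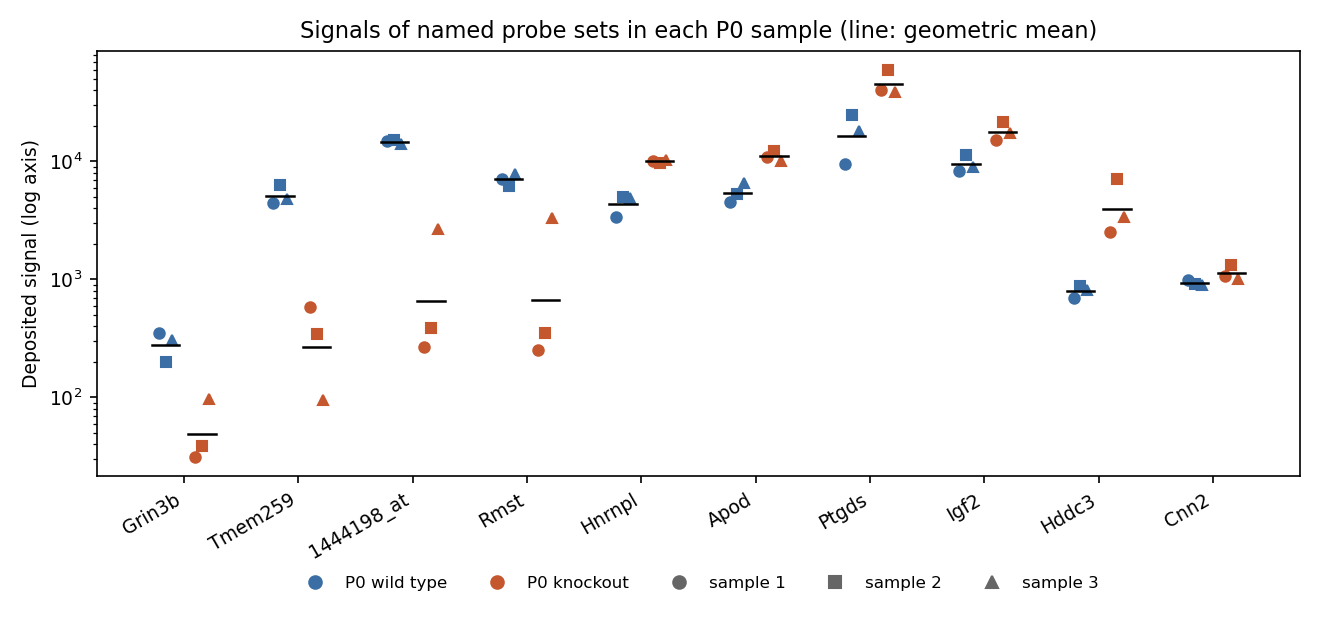
Deposited signal (log axis) of 10 probe sets in each of the 6 P0 samples; blue is wild type, orange is knockout, the shape gives the sample number and the line is the geometric mean of 3 samples. Tmem259 sits at 4446 to 6281 in wild type and 95.0 to 587 in knockout, and knockout sample 3 is apart from the other knockout samples for 1444198_at and Rmst.

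A pair of probe sets named here after their values were seen had the deepest differences beside Tmem259. The probe set 1444198_at, which has no gene symbol in the platform annotation, read 14876, 15104 and 14043 in wild type and 268, 389 and 2674 in knockout. Its difference was -4.47 (SE 0.60) and missed the threshold (limma adjusted p = 0.0507), while at P5 the difference was -5.64 (limma adjusted p = 5.58e-05). It was called in 7 of 24 alternative settings. Rmst, a long noncoding RNA of neural progenitors, read 7139, 6227 and 7884 in wild type and 251, 352 and 3316 in knockout on probe set 1438822_at, a difference of -3.37 (SE 0.93, limma adjusted p = 0.635). In both probe sets P0 knockout sample 3 was several-fold above the other P0 knockout samples and still below every P0 wild-type sample. At P5, 1438822_at differed by -4.74 (SE 0.65, limma adjusted p = 0.0363) and was called. A second Rmst probe set, 1440495_at, differed by -0.90 (SE 0.34) at P0 and by -0.49 (SE 0.24, limma adjusted p = 0.823) at P5.

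**Figure D3:**
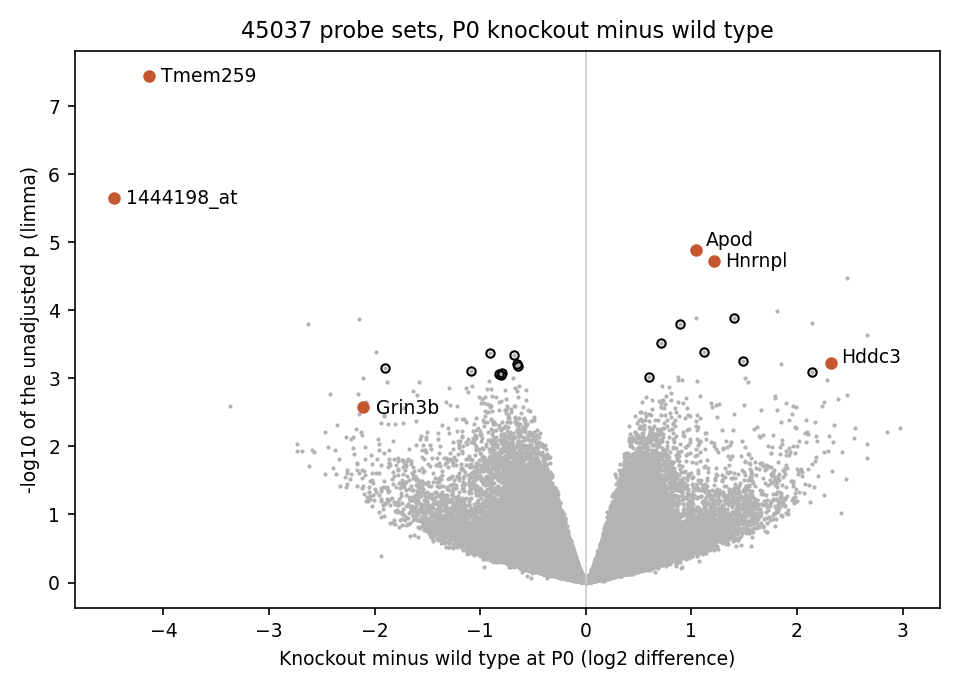
Each of the 45037 probe sets by its log2 difference between P0 knockout and wild type (x) and the −log10 of its unadjusted limma p (y). Filled orange points are labelled probe sets, and open circles are the rest of the 20 genes with the smallest p among bright probe sets. Tmem259 and 1444198_at lie apart at the upper left, and Grin3b lies within the cloud at -2.11.

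The 10 bright genes with the smallest p among those higher in knockout were Apod, Hnrnpl, Ptgds, Igf2, Igfbp2, Gpaa1, 3110040N11Rik, Hddc3, P2ry6 and Rab34, with folds of 1.51 to 4.99. None of these was called (limma adjusted p from 0.197 to 0.635). All 10 had non-overlapping groups, as did 5.4% of all probe sets in this direction. That count follows from choosing them by p and supports nothing further. Several of them are secreted products known from the meninges.

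Apod, apolipoprotein D, a lipid carrier, read 4521, 5329 and 6597 in wild type and 10877, 12197 and 10137 in knockout. The difference was 1.04 (SE 0.16, limma adjusted p = 0.197), and 0.57 (SE 0.42) with overlapping groups on its second probe set. At P5 the genotypes differed by 0.038 and lay at 11072 to 13174, so that the P0 wild-type samples were the low ones among all 4 groups. Igf2, insulin-like growth factor 2, read 8355, 11377 and 8998 in wild type and 15177, 21564 and 17319 in knockout, a difference of 0.89 (SE 0.18), against -0.045 at P5. Its second, dimmer probe set, 1415931_at, went the other way at -0.20 (SE 0.35), with overlapping groups. Ptgds, prostaglandin D synthase, read 9550, 24753 and 18100 in wild type and 39922, 59324 and 38604 in knockout on 1423860_at. Its difference was 1.40 (SE 0.27) on that probe set and 1.04 (SE 0.20) on 1423859_a_at, and 0.13 at P5 on the first. Igfbp2, which binds insulin-like growth factors, differed by 0.71 (SE 0.15).

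Hnrnpl, a splicing regulator, read 3344, 4957 and 4931 in wild type and 9975, 9716 and 10303 in knockout. The 3 knockout samples had an SD of 0.028 on the log2 scale, and the difference was 1.22 (SE 0.20, limma adjusted p = 0.210), against 0.52 at P5. Its second, dim probe set differed by 0.73 (SE 0.78). Hddc3, an HD domain hydrolase, read 699, 880 and 805 in wild type and 2495, 7115 and 3388 in knockout on 1428692_at. Its second probe set, 1452875_at, went the other way at -0.82 (SE 0.31), so that the gene has no single direction here. Rab34, a small GTPase of primary cilia, differed by 0.60 and 0.63 on its pair of probe sets. P2ry6, a nucleotide receptor of microglia, read 372, 90.2 and 75.8 in wild type and 743, 494 and 793 in knockout, a difference of 2.14 (SE 0.51). Gpaa1, a subunit of the transamidase that attaches lipid anchors to proteins, differed by 1.12 on its named probe set and by 0.19 on the one with the smallest difference.

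On the other side, the 10 bright genes with the smallest p among those lower in knockout were Tmem259, Nbeal1, Gpd2, Adgrl3, Atp2c1, Mobp, Arhgap5, Agap1, Scmh1 and Usp15. Apart from Tmem259, each had a limma adjusted p of 0.635. Groups that do not overlap in this direction made up 5.32% of all probe sets. Adgrl3, the adhesion receptor latrophilin 3, read 12344, 9410 and 11632 in wild type and 7562, 7205 and 6386 in knockout, a difference of -0.65 (SE 0.15). Its other 5 probe sets differed by -0.49 to -0.081. Atp2c1, a calcium and manganese pump of the Golgi, differed by -0.64 (SE 0.15). Its 4 other probe sets differed by -0.49, -0.38, -0.17 and 0.59, with overlapping groups in each. Gpd2, the mitochondrial glycerol phosphate dehydrogenase, differed by -0.68 (SE 0.15), and on its 3 other probe sets by -0.72 to -0.21.

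Mobp, a myelin protein gene that is barely on at birth, read 267, 576 and 183 in wild type and 41.5, 176 and 39.0 in knockout, a difference of -1.90 (SE 0.45). At P5 its signals were 5567 to 8833 in both genotypes together, with a difference of -0.17. Of its 4 other probe sets, 1436263_at differed by -1.68 (SE 0.58). The brighter 1433785_at and 1421010_at differed by -0.61 (SE 0.45) and -0.44 (SE 0.41) with overlapping groups, and the dim 1441308_at by 0.23 (SE 0.75). Nbeal1, a BEACH domain protein, differed by -0.91 (SE 0.20), and its 3 other probe sets by -0.81, -0.55 and -0.072. Usp15, a deubiquitinase, differed by -0.81 (SE 0.19) on its named probe set, and its 5 others ranged from -1.15 to -0.050. Scmh1, a Polycomb group gene, differed by -0.82 (SE 0.20) on 1441573_at and by 0.058 on the brighter 1426241_a_at.

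The P5 samples entered the choice of these 20 genes through the error and through the brightness limit, which is set on the mean of all 12 samples. Mobp and P2ry6 passed that limit through their P5 signals. Because the genes were picked by their p at P0, the size of their differences at P5 is not compared with that at P0. The sign at P5 was the same for 8 of the 10 higher genes and 9 of the 10 lower ones. Among all bright genes, 51.6% were above 0 at P5 and 48.4% below. Groups did not overlap in the same direction at P5 for 3 of the 10 higher genes (Hnrnpl, Gpaa1 and P2ry6) and for 1 of the 10 lower ones (Tmem259). The shares of bright genes whose P5 groups did not overlap were 7.66% higher and 5.26% lower. A test of the genotype by age interaction with limma called 0 probe sets, with a smallest adjusted p of 0.830, and 2345 (5.21%) had an unadjusted p under 0.05. Over bright probe sets, the median absolute difference between genotypes was 0.225 at P0 and 0.107 at P5, beside median SEs of 0.238 and 0.167.

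Gene lists for receptors, cell types, brain regions and cell processes were then followed through the 6 samples. The 30 lists hold 600 entries, of which 543 were measured by a probe set with that single symbol, 71 of them below the 40th percentile, and 57 were not. No list had a member called over all probe sets. Counts of members with an unadjusted p under 0.05 are therefore given beside the share of all genes, at 1 probe set per gene: 5.8% higher and 2.36% lower. At 1 probe set per gene, 57.6% of genes were higher in knockout, with a median difference of 0.067. A list's level in a sample is the median over its measured members of the log2 value minus the mean of the 6 P0 samples. In these bulk samples, fewer cells of a type and less RNA per cell cannot be told apart.

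**Figure D4:**
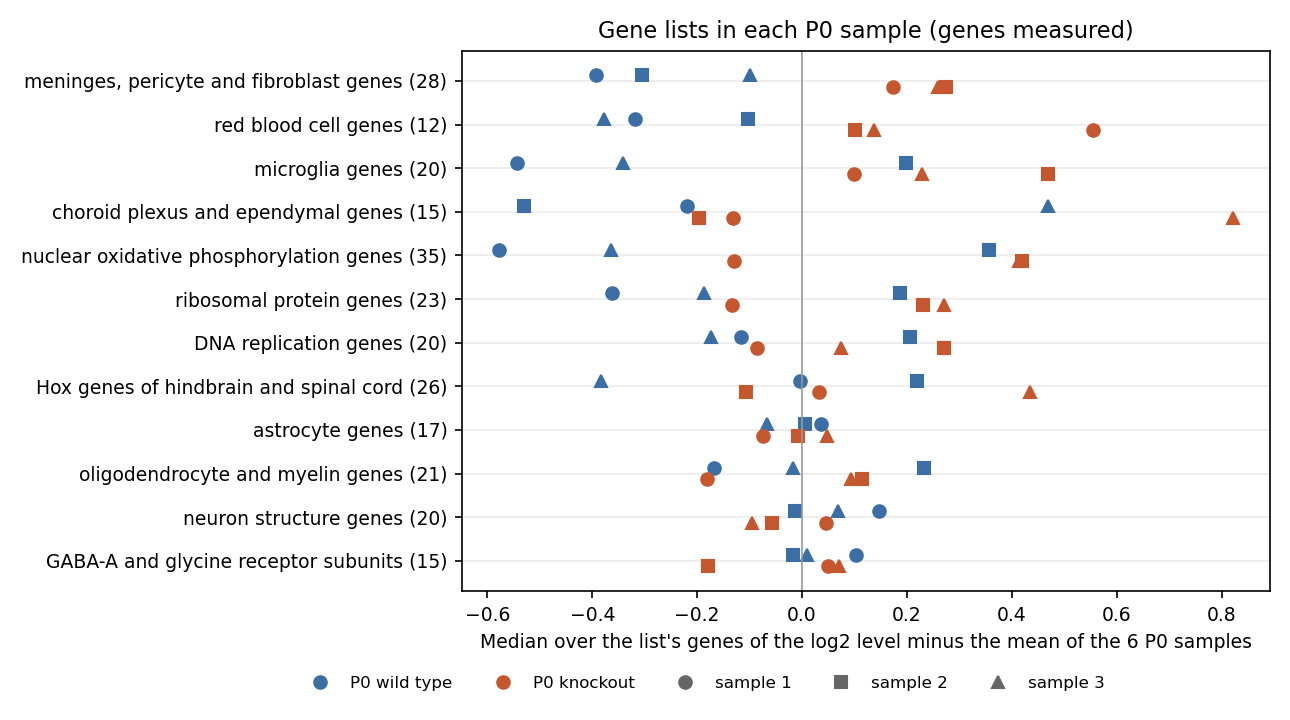
Level of 12 of the gene lists in each P0 sample, as the median over the list's measured genes (number in parentheses) of the log2 level minus the mean of the 6 P0 samples; blue is wild type, orange is knockout, the shape gives the sample number. The genotypes do not overlap for meninges, pericyte and fibroblast genes and for red blood cell genes, while wild-type sample 2 lies beside knockout samples 2 and 3 for oxidative phosphorylation and ribosomal protein genes.

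Genes of meninges, pericytes and fibroblasts were mostly higher in knockout, though none was called. Of 28 measured, 24 were higher in knockout, with a median of 0.50, and 12 (42.9%) had an unadjusted p under 0.05. Groups did not overlap, upward, for 8 of them, against 6.5% of all genes. The list's level was -0.39, -0.31 and -0.10 in wild-type samples 1, 2 and 3 and 0.17, 0.27 and 0.26 in knockout samples 1, 2 and 3. Wild-type sample 2 lay with its own genotype here, unlike on the first principal component. At P5 the median was 0.044. The list holds Apod, Igf2, Ptgds and Igfbp2, which head the higher genes, so those genes and this list are not separate observations.

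Further members show the same order of groups. Slc6a13, a GABA and taurine transporter of the meninges, read 1603, 927 and 1947 in wild type and 3308, 3223 and 2141 in knockout, a difference of 1.05 (SE 0.26). Fmod, the collagen-binding proteoglycan fibromodulin, read 1545, 1253 and 1405 in wild type and 3308, 2283 and 1907 in knockout, a difference of 0.87 (SE 0.21). Both have groups that do not overlap. The collagen genes were less apart: Col1a1 differed by 0.46 (SE 0.28), Col1a2 by 0.38 (SE 0.23) and Col3a1 by 0.28 (SE 0.27). The pericyte genes Pdgfrb, Abcc9, Rgs5 and Kcnj8 were the 4 members with differences below 0, from -0.34 to -0.089. They were chosen for mention after their values were seen. Leaving out single P0 samples moved the count of 12 between 10 and 14, and leaving out wild-type samples 1 and 2 together gave 8. That last count sets 3 knockout samples against a single wild-type sample, whose spread is taken from the other groups. The list's median, the largest of the 30 as given, was below that of oxidative phosphorylation genes with the deposited scaling (0.44 against 0.51), with array medians set equal (0.50 against 0.57) and without wild-type sample 2 (0.50 against 0.74).

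Of 20 measured microglia genes, 16 were higher in knockout, with a median of 0.48, and 6 had an unadjusted p under 0.05. The list's level was -0.54, 0.20 and -0.34 in wild type and 0.10, 0.47 and 0.23 in knockout, so that wild-type sample 2 lay within the knockout range. C1qb, a chain of complement component C1q, read 1823, 3333 and 2204 in wild type and 3468, 4690 and 4019 in knockout, a difference of 0.80 (SE 0.22). The other chains C1qa and C1qc differed by 0.78 (SE 0.25) and 0.75 (SE 0.27). Trem2, a lipid-sensing receptor of microglia, read 73.7, 122 and 87.4 in wild type and 516, 742 and 488 in knockout on the dim probe set 1421792_s_at. Its difference was 2.48 (SE 0.42, limma adjusted p = 0.304), and 1.40 (SE 0.98) on its second probe set. At P5 the median of the list was 0.31, with all 20 genes above 0. The count of 6 ranged from 3 to 11 when single P0 samples were left out; it was 3 without knockout sample 2 and 11 without wild-type sample 2.

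Red blood cell genes were measured for 12 of 16 entries, and 11 were higher in knockout, with a median of 0.39. The list's level was -0.32, -0.10 and -0.38 in wild type and 0.55, 0.10 and 0.14 in knockout. Alas2, the erythroid enzyme that starts heme synthesis, read 480, 972 and 688 in wild type and 2372, 1301 and 2275 in knockout, a difference of 1.51 (SE 0.37). Hbb-b2, a beta-globin gene, read 268, 707 and 426 in wild type and 860, 1040 and 1575 in knockout, a difference of 1.37 (SE 0.45); globin genes are near-identical, so reads of single members are uncertain. These genes mark blood left in the tissue, and the part of blood in any other difference was not tested. Of the 12 genes, 4 had an unadjusted p under 0.05, against 1 without wild-type sample 1 and 2 without wild-type sample 3 or knockout sample 3.

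Oxidative phosphorylation genes of the nucleus had 31 of 35 members higher, with a median of 0.42, but only 4 with an unadjusted p under 0.05 and 0 with groups that do not overlap. Their level was -0.58, 0.36 and -0.36 in wild type and -0.13, 0.42 and 0.41 in knockout. Ndufa4, a subunit of the respiratory chain, read 20017, 49726 and 24670 in wild type and 33778, 61314 and 64088 in knockout, a difference of 0.70 (SE 0.26). Cox5a, a subunit of cytochrome c oxidase, read 31270, 71678 and 30866 in wild type and 52831, 66312 and 74391 in knockout, a difference of 0.52 (SE 0.20). In both genes wild-type sample 2 was above knockout sample 1. The count of 4 became 0 without wild-type sample 1, wild-type sample 3 or knockout sample 3. It was 1 without knockout sample 2, 23 without knockout sample 1 and 29 without wild-type sample 2. The error model moved it too, to 2 with the P0 samples only and 26 with a weight per array. With a block for the sample number it was 22. Those last shares were 74.3% and 62.9%, against 9.71% and 6.47% of all probe sets upward in the same fits. At P5 the median was -0.016.

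Ribosomal protein genes followed the same samples, at -0.36, 0.19 and -0.19 in wild type and -0.13, 0.23 and 0.27 in knockout. Of 23 measured, 21 were higher, with a median of 0.23, and 2 had an unadjusted p under 0.05. That count was 11 without wild-type sample 2, 10 without knockout sample 1 and 0 without any other P0 sample. Rps15 read 28709, 79356 and 27682 in wild type and 48157, 76211 and 72825 in knockout. In wild-type samples 1 and 3 these levels go with the lowest 3′ 18S signals of the 12 samples, 7728 and 48911. On the M probe set of 18S, wild-type sample 2 read below wild-type sample 3, at 22789 against 25764. The part of the 18S signal in the result was not tested.

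Choroid plexus and ependymal genes were highest in sample 3 of each genotype. Their level was -0.22, -0.53 and 0.47 in wild type and -0.13, -0.20 and 0.82 in knockout, so that the genotypes overlapped. Knockout sample 3 lay above wild-type sample 3. Knockout samples 1 and 2 lay above wild-type samples 1 and 2, narrowly so for -0.20 against -0.22. Of 15 measured, 12 were higher, with a median of 0.33, and 4 had an unadjusted p under 0.05. The count was 0 without wild-type sample 1 or knockout sample 3 and 2 without knockout sample 2, and the median was 0.012 without knockout sample 3 and 0.12 without wild-type sample 2. Among the 4, Dynlrb2, a dynein light chain of cilia, read 576, 888 and 549 in wild type and 802, 1218 and 1532 in knockout, a difference of 0.84 (SE 0.35). Samples 3 were also the ones with the male pattern and the lowest actin ratio; the part of either in this list was not tested.

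Of 22 immediate early and stress genes, 1 had an unadjusted p under 0.05, a share of 4.55%, near the 5.8% of all genes. The level of the list was -0.070, -0.026 and -0.074 in wild type and 0.13, 0.080 and 0.12 in knockout, and 17 were higher, with a median of 0.21. Fos, an immediate early transcription factor, read 1424, 2390 and 1542 in wild type and 3206, 2423 and 2707 in knockout, a difference of 0.72 (SE 0.24), and was that 1 member. At P5 the median was 0.18. Of all 30 lists, 3 had levels that do not overlap between the P0 genotypes, all upward: this list, red blood cell genes and the meningeal list. Among single probe sets, 5.4% had groups that do not overlap upward and 5.32% downward. A list's level is a median over many genes, a different unit from a single probe set. These shares therefore do not tell how many of 30 lists to expect, and the 3 lists are not read as a result.

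Lists of neurons, astrocytes and oligodendrocytes had medians near 0, some of which changed sign with the scaling. Of 20 neuron structure genes, 12 were lower, with a median of -0.12; Ina, Syt1 and Map2 were lower with an unadjusted p under 0.05, at -0.39, -0.39 and -0.38, while Rbfox3 and Uchl1 were higher at 0.41 and 0.31. Without quantile normalization this list's median was 0.042 with the deposited scaling and 0.099 with array medians set equal, and 0 members were lower with an unadjusted p under 0.05 in either. The lower count was also 0 without wild-type sample 1, knockout sample 2 or knockout sample 3. Motor neuron genes had a median of 0.13 over 12 measured, with 8 higher and 4 lower. Their differences ran from -0.57 to 0.57, with 0 of them past an unadjusted p of 0.05. Slc5a7, the choline transporter of cholinergic neurons, read 1130, 1133 and 996 in wild type and 808, 756 and 542 in knockout, a difference of -0.57 (SE 0.31). Astrocyte genes had a median of -0.035, or 0.11 and 0.17 under those scalings, with opposite differences for Slc1a2, the main glutamate transporter, at -0.57 (SE 0.15) and for the gap junction gene Gjb6 at 0.69 (SE 0.19). Oligodendrocyte and myelin genes had a median of 0.027 over 21 genes, or -0.012 with the deposited scaling. Mog, a late myelin gene, differed by -1.91 (SE 0.55) from signals of 225, 160 and 93.6 to 114, 17.6 and 4.96, which overlap.

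Receptor lists other than NMDA subunits gave few differences. Of 15 GABA-A and glycine receptor subunits, 11 were lower, with a median of -0.051, and 2 had an unadjusted p under 0.05: Gabrg3 at -0.64 (SE 0.25) and Gabra2 at -0.49 (SE 0.20). Gabrg3 read 1263, 1060 and 1074 in wild type and 798, 805 and 501 in knockout, without overlap. Of 10 AMPA and kainate subunits, 7 were lower, with a median of -0.086, and Grik2 was the 1 with an unadjusted p under 0.05, at -0.66 (SE 0.26). RNA-binding and splicing genes had a median of -0.047 over 32 genes, which was 0.053 with the deposited scaling and 0.11 with array medians set equal. Hnrnpa1, a partner of Hnrnpl in this list, read 9734, 12119 and 10067 in wild type and 15906, 15281 and 14550 in knockout, a difference of 0.52 (SE 0.15).

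Position along the body axis was read from Hox genes. Their level was -0.0029, 0.22 and -0.38 in wild type and 0.033, -0.11 and 0.43 in knockout, with 0 of 26 members past an unadjusted p of 0.05 and a median of 0.099. Wild-type sample 3 and knockout sample 3 lay at opposite ends. The range over P0 samples was 0.82, against 0.19 at P5. Forebrain genes spanned 0.21 at P0 and 0.28 at P5. The genotypes overlapped in both lists. The Hox median was -0.053 without wild-type sample 3 and -0.0086 without knockout sample 3.

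One sample set how many probe sets were called. Leaving out wild-type sample 2 raised the count from 1 to 1223 (2.72%), with 865 higher (1.92%) and 358 lower (0.795%). That sample is the wild-type sample that lay among the knockout samples on the first principal component. Without that sample, 13 of 35 oxidative phosphorylation genes, 7 of 28 meningeal genes and 5 of 20 microglia genes were called higher. The wild-type samples left, 1 and 3, lay at the negative end of that component, at -58.7 and -36.2. Of the 1203 bright probe sets called without wild-type sample 2, 100% differed in the direction of their weight on it. These calls and the first component are therefore not separate observations. Leaving out any other P0 sample gave 1 call, or 3 without knockout sample 3. Giving all 12 samples the same weight gave 5 calls (0.0111%): Tmem259 and 1444198_at lower, and Apod, Hnrnpl and Trem2 higher.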

How the data were processed

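Total RNA of 12 samples had been hybridized to Affymetrix arrays. The authors deposited 1 linear intensity (signal) per probe set and sample. The software behind these signals and any genome build: not given in the sources used here. Trimming 2% of probe sets at either end left a mean of 2500 on all arrays, so the deposited arrays had been scaled to a common mean. Of 45101 probe sets, 64 controls were left out. The platform annotation gave 1 symbol for 34945, several for 932 and none for 9160; 34741 single symbols matched the RefSeq table of GRCm38.p6, used for names, gene order and gene spans.

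Signals were transformed as log2(signal + 16) and quantile-normalized. limma 3.58.1 in R 4.3.3 was fitted with a mean per group, 1 array weight per age (0.702 at P0 and 1.42 at P5) and an intensity trend, on 8 residual degrees of freedom. The fit was tested on simulated data, where it recovered the simulated differences but made more false calls than its threshold states. Sample numbers were checked for pairing at P0: same-numbered samples' deviations correlated at 0.409, 0.315 and 0.0551, so they were not treated as pairs.

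Genes named are Grin3b, Tmem259, Cnn2, the NMDA subunits, the 10 bright genes with the smallest p in each direction (fewer than 5 were called), up to 4 members of each list described by smallest p, sex markers, the 10 largest weights at each end of the first component, and controls. Others were chosen after their values were seen: 1444198_at, Rmst, the end members of the neighbours with Plppr3, the collagen and pericyte genes, and members beside them. Members and lists were chosen with earlier results of these data known.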

Additional observations from a re-analysis of the deposited data

How the results depend on the processing

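Over 25 alternatives the number of probe sets called ranged from 0 to 1223. It was 2 with the deposited scaling, 2 with a pseudocount of 64, 2 with a weight per array, 2 with sex as a covariate and 5 with equal weights. It was 0 with the P0 samples only (2702 at an unadjusted p under 0.05 in limma) and 0 with a prior without an intensity trend (2530). Leaving out a single sample gave 1 to 1223, P5 samples included, which were left out by a choice made after seeing the data; the highest count came without P0 wild-type sample 2, and the cause was not tested. Without P0 wild-type samples 1 and 2 together, which leaves 1 wild-type sample that is assumed to vary like the other groups, the only call was Psmd6, higher. A replicate block for the sample number gave 1 call, Tmem259 (limma adjusted p = 0.00417), with 5563 probe sets at an unadjusted p under 0.05; the numbers were not taken as pairs, and sample 3 of wild type correlated best with knockout sample 1, at 0.0805. Tmem259 was lost in 3 settings: the P0 samples only (limma adjusted p = 0.288), the prior without a trend (0.0852) and wild-type samples 1 and 2 left out (0.115). Grin3b kept its direction and was uncalled in all 25. The median within-group SD in knockout, 0.332, was 0.298 with a pseudocount of 64, 0.246 above the 40th percentile and 0.210 with 1 probe set per gene above it, and 0.236 to 0.300 with a sample left out. In wild type, 0.354 became 0.279, 0.269 and, with a sample left out, 0.241 to 0.329. Signs turned for uncalled genes: with a P0 sample left out, Grin2b ranged from -0.21 to 0.053 (highest without knockout sample 3), Grin3a from -0.094 (without wild-type sample 1) to 0.35, and Grin2c from -0.17 (without wild-type sample 2) to 0.27. Grin2c was -0.086 with a weight per array and -0.38 without wild-type samples 1 and 2; the cause was not tested. Without quantile normalization, list medians near 0 turned sign for neuron structure, astrocyte, RNA-binding, oligodendrocyte, forebrain, midbrain and hindbrain, synaptic vesicle and sex-linked genes; the median of all probe sets was 0.0028, and -0.023 and 0.032 under those scalings. The choroid plexus and ependymal median was -0.37 without wild-type samples 1 and 2. Of probe sets with an unadjusted p under 0.05, 49% were higher, against 73% with 1 probe set per gene above the 40th percentile, 61.1% without wild-type samples 1 and 2 and 38.5% without knockout sample 2. Deposited signals come without detection calls, so that dim probe sets such as that of Grin3b have no limit of detection here.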
